A study of Caenorhabditis elegans with 4 samples.

Results

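Chromosome III of Caenorhabditis elegans carried 491 of the 2836 peaks called for the nuclear hormone receptor NHR-11 in late embryos. These 491 were chosen by position alone: every peak listed on chromosome III in the peak list of the whole series belongs to the set. The same chromosome had 65 of 328 peaks in the list of ChIP replicate 1 and 50 of 258 in that of ChIP replicate 2. The comparison is with chromosomes I, II and V, which held 1532 peaks of the series-wide list, 164 of replicate 1 and 135 of replicate 2. The comparison is among autosomes, without IV, which had fewer peaks than any other chromosome (228, or 13.0 per Mb).

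The data are chromatin immunoprecipitation followed by sequencing (ChIP-seq), in which DNA crosslinked to a protein is pulled down and sequenced. All animals were hermaphrodites of strain OP305, grown at 20 °C, and fed E. coli HB101. Crosslinking was with 2% formaldehyde in every sample. They had the mutation unc119(ed3) and the transgene wgIs305, which holds a normal unc119 together with nhr-11::TY1 EGFP FLAG. Mutation and transgene were shared by every sample, and the protein pulled down with anti-GFP antibodies was the tagged copy. The strain was made by bombardment and outcrossed 3 times, and its listed genotype has no mutation of the animals' own nhr-11. The 2 ChIP samples have a peak list each. The 2 input samples, total DNA saved from the lysates, have no list here and were not analysed. There is no separate control strain in the comparison, so background binding of the antibody was not measured here. Nothing in the labels says that the replicates were separate cultures, so their differences may be technical.

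Nuclear hormone receptors are transcription factors with a DNA-binding and a ligand-binding domain, and the family is greatly expanded in nematodes. The autosomes of C. elegans have a gene-dense centre with little meiotic exchange. Their arms recombine more and hold more repeats, and each chromosome ends in telomeric repeats. The marker gene unc-119, which acts in neurons, lies on III in the gene table used, while nhr-11 lies on IV. That table is of another genome build, so peaks are named by position on build WS220 and were not assigned to genes.

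Each peak has 1 significance value from the authors' peak caller, a p-value or q-value that is called the score here, and a smaller score is a stronger peak. The strongest peak on III lay near the middle of the chromosome, at III:7446286-7447884, with a score of 2.05e-40 and place 7 in the series-wide list. It was place 3 in replicate 1 (score 4.44e-50) and place 2 in replicate 2 (1.03e-73). Its right edge was at the same base in all 3 lists. The left edge was not: replicate 2 began at 7446317, while replicate 1 split the region into a main peak from 7446685 and a 93 bp peak at III:7446385-7446477 with a score of only 8.72e-04.

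The second strongest peak was near the left end, at III:204359-205479, with a score of 1.80e-29 and place 12. Replicate 1 gave it place 20 (5.20e-14) and replicate 2 gave it place 53 (1.48e-08). The pair at III:3866977-3867764 (9.67e-21) and III:4237695-4238137 (4.97e-20) followed in the left arm. The first of these was place 32 in both replicate lists, and the other was place 59 in replicate 1 and place 30 in replicate 2.

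The next 6 peaks had scores from 8.93e-17 to 2.49e-14. They were III:8799790-8800881, III:1299504-1301041, III:10460598-10461338, III:7854446-7854757, III:835440-836702 and III:12598065-12599082. Every one of the 10 best peaks of III was called in both replicate lists, but their order there differed. III:1299504-1301041 was place 10 in replicate 1 and place 9 in replicate 2, well above its place 40 in the series-wide list. III:835440-836702 went the other way in replicate 1, at place 281 of 328 (6.91e-04) with 261 bp called out of 1263 bp, and was place 48 in replicate 2 (4.17e-09).

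**Figure D1:**
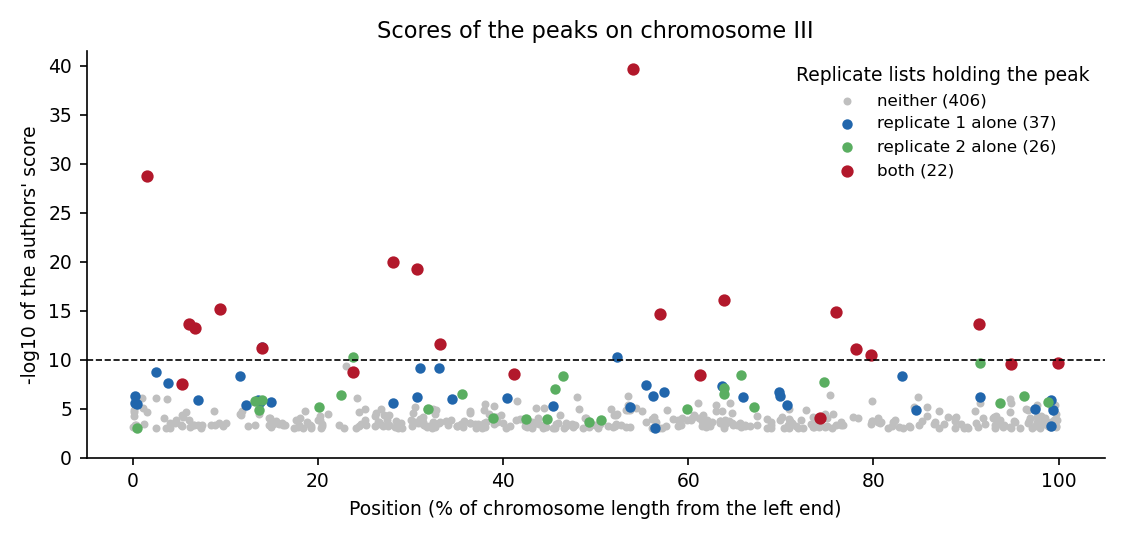
Each point is 1 of the 491 series-wide peaks on III, by its position as a percentage of chromosome length (x axis) and the −log10 of the authors' score (y axis), coloured by the replicate lists that hold it; the dashed line marks a score of 1e-10. Of the 18 peaks above the line, 15 were in both replicate lists, and 1 peak of both lists lies far below it, at 74.2% of the length.

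Strong peaks lay in both arms and in the centre of III, but several 1 Mb stretches had none. Scores below 1e-10 were listed for 18 of the 491 peaks (3.67%, 95% Wilson interval 2.33 to 5.72), against 41 of 1532 on I, II and V (2.68%, 1.98 to 3.61). Over the whole list the share was 3.49%. The difference of 0.99 percentage points (−0.64 to 3.16) did not pass Fisher's exact test (two-sided p = 0.280, adjusted p = 0.439 over 7 comparisons with I, II and V). By equal lengths of III, the left arm held 10 of the 18, the centre 4 and the right arm 4, a split that was not tested. At the limit of the class, III:7207917-7208333 had a score of 5.63e-11 and III:13778124-13781292 had 2.12e-10. Chromosome III held 18 of the 100 strongest peaks of the genome, 41 of the first 250 (16.4%) and 178 of the first 1000 (17.8%). Its share of the full list was 17.3%.

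Replicate support on III could not be told from that on I, II and V. A peak of either replicate list overlapped 85 of the 491 peaks (17.3%, 14.2 to 20.9), against 223 of 1532 on I, II and V (14.6%, 12.9 to 16.4). Over the whole list the share was 15%. The difference of 2.76 points (−0.85 to 6.72) did not pass Fisher's exact test (p = 0.149, adjusted p = 0.347). The single chromosomes were at 12.3% on I, 14.1% on II and 16.7% on V. Both replicate lists held 22 of the III peaks (4.48%), against 64 on I, II and V (4.18%) and 4.69% over the whole list (difference 0.30 points, −1.57 to 2.69, Fisher's exact p = 0.797, adjusted p = 0.870). Replicate 1 alone held 37 of the III peaks, replicate 2 alone 26, and neither 406.

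Support followed the score. Of the 25 strongest III peaks, 24 were in a replicate list, and 23 of the next 25 were. The share was 46% (33.0 to 59.6) for the peaks placed 51 to 100 on the chromosome, 8% (4.11 to 15.0) for those placed 101 to 200, and 1% to 4% in the bins beyond. Whether the series-wide list was called on the same reads is not stated, so support may not be independent of the score. The strongest III peak in neither replicate list was III:3174956-3175194 (239 bp, score 4.27e-10), 22nd on the chromosome. The weakest one with support was the 11 bp peak III:69076-69086 (9.71e-04), which lies inside a 159 bp peak of replicate 2.

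Seen from the replicate lists, 24 of the 65 replicate 1 peaks on III were found in replicate 2 (36.9%, 26.2 to 49.1), against 68 of 164 on I, II and V (41.5%, 34.2 to 49.1). In the other direction, 23 of 50 replicate 2 peaks were found in replicate 1 (46%, 33.0 to 59.6), against 67 of 135 (49.6%, 41.3 to 58.0). These shares were not tested, and their intervals overlap. Agreement lay in the stronger peaks: when each III list was cut by score into 3 equal parts, 14 of 21 peaks of the strongest in replicate 1 and 15 of 16 in replicate 2 had a partner, and of the weakest 4 of 22 and 3 of 17. Over the 22 regions of III that matched one to one, the scores of the 2 lists had a Spearman rho of 0.49, a description across regions of 1 pair of libraries. It was 0.23 over 20 regions on I, 0.77 over 17 on II and 0.76 over 29 on V. The 22 matched regions on III are not the same set as the 22 series-wide peaks in both lists. They leave out the strongest peak of the chromosome, which replicate 1 split, and include III:1301535-1301908, which the series-wide list lacks.

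A few regions of III had edges that did not move between libraries. III:931226-931870 began and ended at the same base in all 3 lists. It was place 11 in replicate 1 (2.82e-22), place 8 in replicate 2 (1.27e-30) and place 58 in the series-wide list (5.43e-14). The peak at III:10224450-10225340 was also the same to the base in both replicates, and the series-wide peak began 2 bp earlier. Such identity was found for 2 of the 22 matched regions on III and for 0 of 66 on I, II and V, a contrast that was not tested. The median difference between the replicates was 54 bp at the start and 35.5 bp at the end on III, against 43 and 19.5 bp on I, II and V.

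III:10224448-10225340 stood apart in another way. It was place 25 in replicate 1 (1.35e-11) and place 20 in replicate 2 (1.62e-17), yet the series-wide list gave it a score of 8.12e-05. That made it 189th of the 491 III peaks, while the other 21 peaks held by both replicates were all among the first 35. A second region was called in both replicates and is absent from the series-wide list used here: III:1301535-1301908 in replicate 1 (2.23e-04) and III:1301536-1301909 in replicate 2 (3.29e-07). It lies 493 bp to the right of III:1299504-1301041, the 6th strongest peak of the chromosome. The other 5 replicate peaks of III that the series-wide list lacks were in 1 replicate each. They were III:4263749-4263965, III:10634081-10634085, III:10935672-10935692 and III:11353936-11354271 in replicate 1 and III:7594550-7595104 in replicate 2 (2.33e-05). The series-wide list used here skips 33 of its peak numbers, so some of these regions may have had a number that is not listed. How the entries came to differ between the lists was not tested.

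The density of peaks on III was above that of I, II and V together. III had 35.6 peaks per Mb (exact Poisson interval 32.5 to 38.9) over 13.8 Mb, against 29.9 (28.4 to 31.4) on the other 3. The ratio was 1.19 (1.07 to 1.32) and passed the exact binomial test (two-sided p = 8.99e-04, adjusted p = 0.00315). Taken one at a time, III exceeded II (25.5 per Mb, ratio 1.39, adjusted exact p = 2.84e-06) and V (30.2 per Mb, ratio 1.18, adjusted exact p = 0.00900). It did not pass against I (34.0 per Mb, ratio 1.05, 0.92 to 1.19, adjusted exact p = 0.467). Neighbouring peaks are not independent, which makes these p-values too small. With 1 Mb bins as the unit and their spread taken into account (quasi-Poisson fit, n = 67 bins, p = 0.0474, adjusted p = 0.166) the ratio of 1.19 had an interval of 1.002 to 1.42 and did not pass after adjustment. The variance of the bins was 2.79 times that of counting error alone.

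Both replicate lists had the same direction. In replicate 1 the density was 4.72 per Mb on III against 3.2 on I, II and V (ratio 1.47, 1.09 to 1.98, exact p = 0.00957, adjusted p = 0.0335). In replicate 2 it was 3.63 against 2.64 (ratio 1.38, 0.97 to 1.92, exact p = 0.0586, adjusted p = 0.205). The calls against single chromosomes changed with the list. Against I the replicate 1 ratio of 1.54 passed (adjusted exact p = 0.0284), while that of replicate 2, 1.3, did not (adjusted exact p = 0.212). Against II the replicate 1 ratio of 2.06 passed (adjusted exact p = 0.00177), while the 1.42 of replicate 2 did not (adjusted exact p = 0.167). Against V it passed in neither, at 1.19 in replicate 1 and 1.40 in replicate 2 (exact p = 0.314 and 0.0887, adjusted exact p = 0.467 and 0.133). Each adjusted value of a replicate list here took the other comparisons of its family from the series-wide list. Adjustment within a replicate list was not made.

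**Figure D2:**
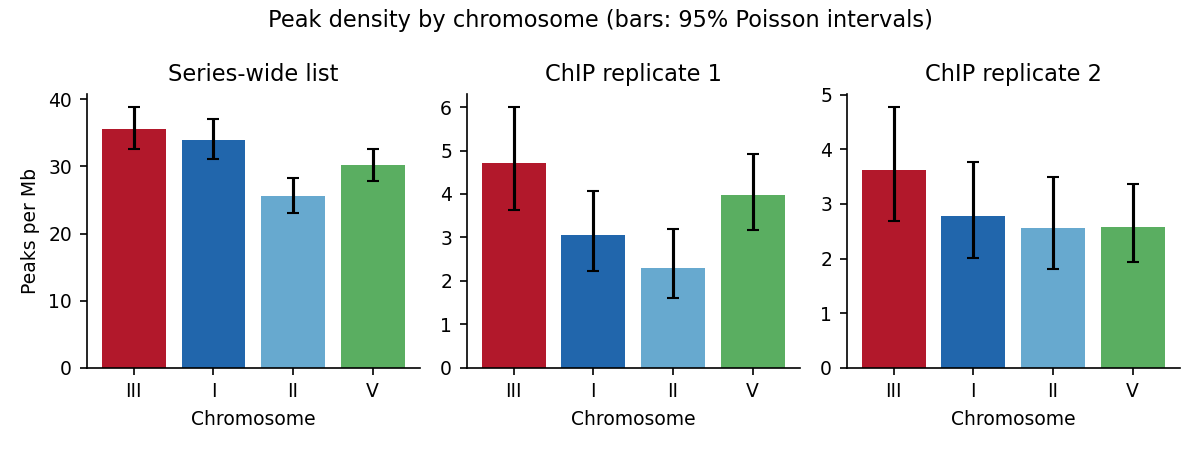
Bars give peaks per Mb (y axis) on chromosomes III, I, II and V (x axis) in the series-wide list and in each replicate list, with 95% exact Poisson intervals. III is the highest bar in all 3 panels. Its interval overlaps those of I and V in each, and that of II only in replicate 2.

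The chromosomes differed less in the median gap between peaks than in how much of their length lay in gaps over 100 kb. The median gap between neighbours was 18242 bp on III, 18597 on I, 18794 on II and 18373 on V. The mean gap was 27859 bp on III, against 28978 on I, 38831 on II and 32942 on V. Gaps over 100 kb numbered 17 of 490 on III (3.47%), against 15 on I (2.94%), 36 on II (9.25%) and 40 on V (6.36%). They took up 16.4% of the length of III, against 14.2% on I, 42.4% on II and 27.0% on V. Outside them III had 42.6 peaks per Mb, against 39.6 on I, 44.3 on II and 41.3 on V, although leaving out long gaps draws densities together by construction. These are descriptions with no test. The longest gap on III, 207132 bp, ran from III:1384612 to III:1591745, and the next, 188498 bp, from III:10795448 to III:10983947.

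**Figure D3:**
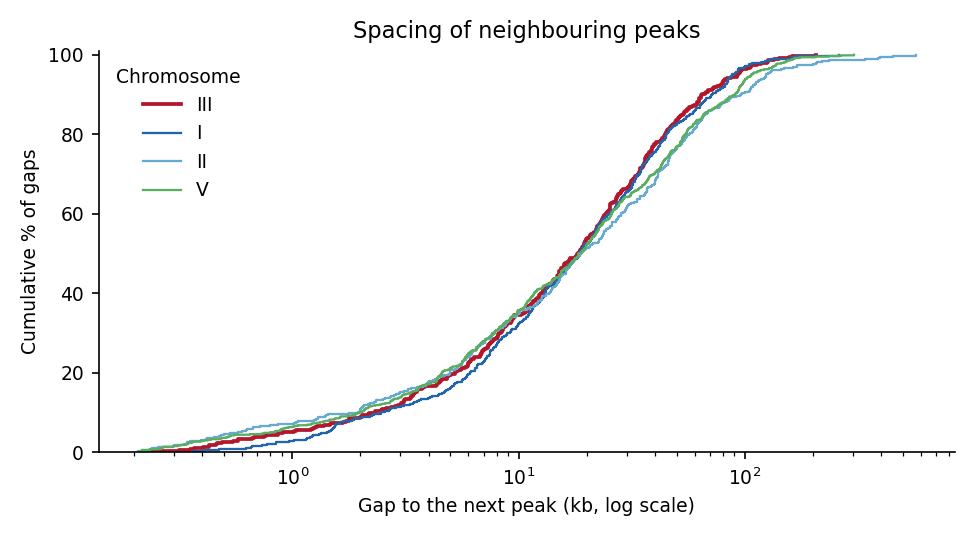
Curves give the cumulative percentage of gaps (y axis) up to a given length in kb (x axis, log scale) for chromosomes III, I, II and V of the series-wide list. The 4 curves cross 50% near 18 kb and part above it, where III and I reach 100% at shorter gaps than V and II.

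In the series-wide list the counts per Mb along III varied little except at the right end. The 13 full 1 Mb bins held 25 to 43 peaks each, with a median of 33 and a variance of 1.11 times the mean. That ratio was 1.74 over the full bins of I, 2.63 on II and 2.26 on V, where the lowest bins held 22, 11 and 17 peaks. The replicate lists did not keep this order. In replicate 1 it was 2.12 on III, against 1.95 on I, 1.08 on II and 1.03 on V, and in replicate 2 it was 0.88 on III, against 0.76, 0.98 and 1.51. None of these ratios was tested. They leave out the last, incomplete bin of each chromosome, which on III was the densest. In 5% steps of the whole length, III had 15 to 43 series-wide peaks per step, I 13 to 36, II 4 to 45 and V 17 to 49. The densest stretch of III was the last, incomplete bin from 13 Mb, with 49 peaks in 0.781 Mb (62.7 per Mb, 46.4 to 82.9). The bins from 5 to 6 Mb (43 peaks), 4 to 5 Mb (42) and 8 to 9 Mb (42) followed, all with intervals that reach the chromosome's mean. The sparsest bins were 1 to 2 Mb with 25 peaks (16.2 to 36.9) and 11 to 12 Mb with 26 (17.0 to 38.1).

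The bins did not have the same order by peak number as by supported or strong peaks, which was not tested. The bin from 1 to 2 Mb, the sparsest, held 10 peaks with replicate support and 3 with scores below 1e-10, whereas the last bin held 8 and 0 among its 49. The bins from 0 to 1 Mb and from 7 to 8 Mb had 11 and 8 supported peaks, with 3 strong ones each. No strong peak lay between 2 and 3 Mb, where the best score was 2.16e-06, and only 2 of 31 peaks there had support. The bins from 5 to 6, 6 to 7, 9 to 10 and 11 to 12 Mb also held no strong peak. Replicate 1 had 10 peaks in the first Mb and 9 from 7 to 8 Mb, and replicate 2 had 5 and 3. From 11 to 12 Mb replicate 1 had 3 peaks and replicate 2 had 0, for which the Poisson interval reaches 3.69.

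**Figure D4:**
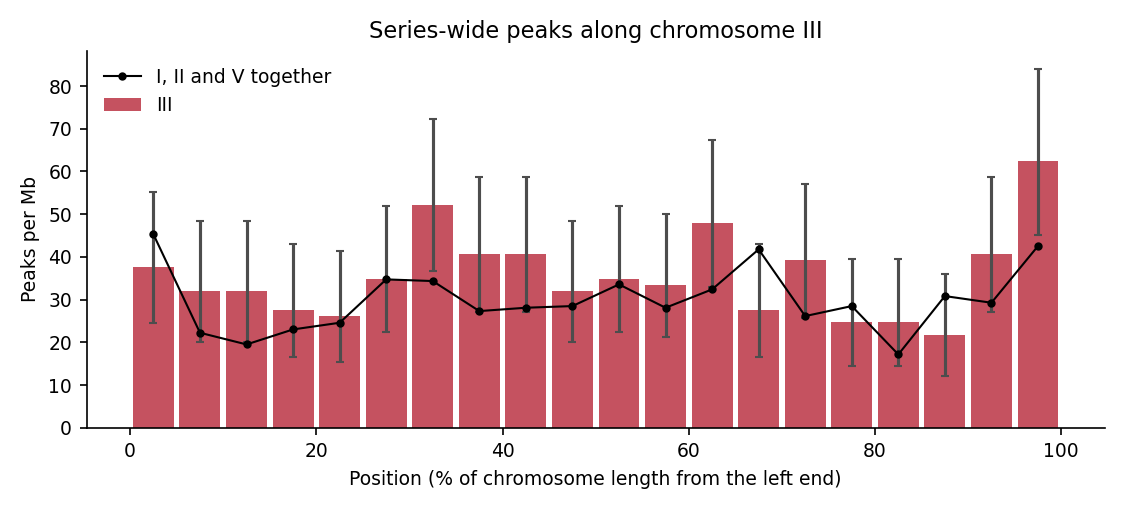
Bars give peaks per Mb (y axis) in 5% steps of chromosome length (x axis) on III with 95% exact Poisson intervals, and the black line gives I, II and V together. The last 5% of III is its highest bar at 62.4 per Mb, where the line is at 42.6, and in the first 5% III is at 37.7 and the line at 45.3.

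No difference between centre and arms of III was detected. The centre, 33.3% of the length, held 170 of the 491 peaks (34.6%, 30.5 to 38.9; exact binomial p = 0.566, adjusted p = 0.911). On I, II and V it held 523 of 1532 (34.1%), and the difference of 0.48 points (−4.25 to 5.39) did not pass Fisher's exact test (p = 0.870, adjusted p = 0.870). The left arm had 162 peaks and the right arm 159 (ratio 1.02, 0.81 to 1.28, exact binomial p = 0.911, adjusted p = 0.911). In the replicate lists the left arm was ahead, with 28 peaks to the left, 17 in the centre and 20 to the right in replicate 1, and 19, 18 and 13 in replicate 2. Neither left-right difference passed the test (exact p = 0.312 and 0.377). The share of peaks with replicate support was 21% in the left arm of III, 16.5% in the centre and 14.5% in the right arm. On I, II and V the order was 12.5%, 15.5% and 15.6%. These shares were not tested.

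The right end of III was dense in peaks in the series-wide list. Its last 500 kb held 39, against 17.8 by length, a density 2.29 times (1.61 to 3.18) that of the rest of the chromosome (exact binomial p = 8.49e-06, adjusted p = 1.70e-05). Neighbouring peaks are not independent, which makes this p-value too small. With each run of peaks under 10 kb apart counted once, the right end held 20. That was 1.76 times (1.06 to 2.77) the density of the rest, and passed by a small margin (exact binomial p = 0.0234, adjusted p = 0.0469). The first 500 kb held 20 peaks, 1.13 times (0.68 to 1.76) the density of the rest (exact p = 0.546, adjusted exact p = 0.546). In a comparison added after these values were seen, the right end had 1.95 times the peaks of the left (1.11 to 3.53), which did not pass after adjustment over 3 (exact p = 0.0183, adjusted p = 0.0550). Of the other autosomes, the last 500 kb had 38 peaks per Mb on I, 52 on II and 72 on V, and the first 500 kb 60, 64 and 60. These were not tested against the rest of their chromosomes. The right end of III had 78 per Mb, against 54 at the right ends of I, II and V (ratio 1.44, 0.96 to 2.14, exact p = 0.0723, adjusted p = 0.0817). The left end of III had 40 per Mb, against 61.3 at the left ends of I, II and V (ratio 0.65, 0.38 to 1.07, exact p = 0.0817, adjusted p = 0.0817).

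In the replicate 1 list the right end held 5 peaks, 2.21 times (0.69 to 5.46) the density of the rest of III (exact p = 0.0870, adjusted exact p = 0.174). In that of replicate 2 it held 2, 1.11 times (0.13 to 4.22) the density of the rest (exact p = 0.703, adjusted exact p = 0.703). The left end had the same counts, 5 and 2. The test thus passed in the series-wide list and in neither replicate list, where few peaks leave the intervals wide. Of the 39 series-wide peaks at the right end, 6 had replicate support (15.4%, 7.25 to 29.7), near the 15% of the whole list. A score below 1e-10 was listed for 0 of them, and the share over the whole list was 3.49%. The median −log10 score was 3.78, against 4.71 for the 20 peaks at the left end and 3.76 over all of III. The last peak of the chromosome, III:13778124-13781292, was the widest on III, at 3169 bp, and all 3 lists called it nearly whole: 3053 bp in replicate 1 (4.69e-04) and 3148 bp in replicate 2 (3.14e-05). Its series-wide score was 2.12e-10. The first peak, III:1831-1958, was 128 bp wide, had a score of 7.56e-04 and was in neither replicate list. In the first 100 kb III had 10 peaks, and in the last 100 kb it had 11. As densities these are 100 and 110 per Mb on III, against 100 and 93.3 per Mb at the left and right ends of I, II and V.

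Runs of peaks with gaps under 10 kb held 272 of the 491 III peaks (55.4%), against 54.1% on I, 54.6% on II and 54.1% on V. III had 65 pairs, 23 triples and 15 longer runs, and 219 peaks stood alone. The longest run, 7 peaks over 25526 bp, was near the left end, at III:15539-41064. Its best score was 4.78e-07 and 2 of its peaks were in the replicate 1 list. Runs of 6 peaks numbered 3. One, III:8795700-8812355, surrounds the strong peak III:8799790-8800881, and 3 of its 6 peaks had support. Another, III:13060992-13070638, packed 6 peaks into 9647 bp, of which 2580 bp were covered, and its rightmost peak III:13069931-13070638 (2.55e-10) was in both replicates. The last, III:13656210-13674108, lies 107 kb from the right end, with a best score of 1.14e-06 and 2 supported peaks.

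The median widths of peaks in runs and of peaks that stood alone were 215.5 and 214 bp, and a replicate list held 19.9% (15.5 to 25%) of the peaks in runs and 14.2% (10.2 to 19.4) of the others, with overlapping intervals and no test. The closest neighbours on III were 230 bp apart, at III:9287050 and III:9287281. Gaps under 1 kb made up 5.10% of the gaps on III, against 2.94% on I, 7.20% on II and 6.36% on V.

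Wide peaks were fewer on III. The median width was 215 bp (interquartile range 137 to 332), against 226 bp (154 to 369) on I, II and V. Peaks of 500 bp or more numbered 35 (7.13%, 5.17 to 9.75), against 199 (13.0%, 11.4 to 14.8) on I, II and V and 11.6% over the whole list. The difference of −5.86 points (−8.51 to −2.79) passed Fisher's exact test (p = 3.36e-04, adjusted p = 0.00235). The call rested on chromosome II, where 22.1% of the peaks were that wide, against 10.7% on I and 9.21% on V. Without II the difference was −2.77 points (−5.47 to 0.31, exact p = 0.0749, adjusted p = 0.262). From 1000 bp the call was also lost, with 8 peaks on III (1.63%) against 34 on I, II and V (2.22%; −0.59 points, −1.77 to 1.08, exact p = 0.585, adjusted p = 0.819).

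The widest III peaks were also among its strongest. After the peak at the right end came III:7446286-7447884 (1599 bp) and III:1299504-1301041 (1538 bp), the 1st and 6th by score. Of the 35 wide peaks 12 were in both replicate lists and 17 in neither. The widest peak in neither list, III:3800986-3802160, spanned 1175 bp with a score of 5.67e-04. Peaks under 50 bp made up 9.98% (7.63 to 12.9) of the III peaks, against 8.42% (7.13 to 9.92) on I, II and V and 9.52% over the whole list (difference 1.56 points, −1.23 to 4.80, exact p = 0.314, adjusted p = 0.439). Of these 49, 48 were in neither replicate list. In covered length III exceeded I, II and V together by less than in peak number, with 0.934% of the chromosome under peaks against 0.903%. Taken singly, II was above III at 1.07%, while I had 0.896% and V 0.788%.

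**Figure D5:**
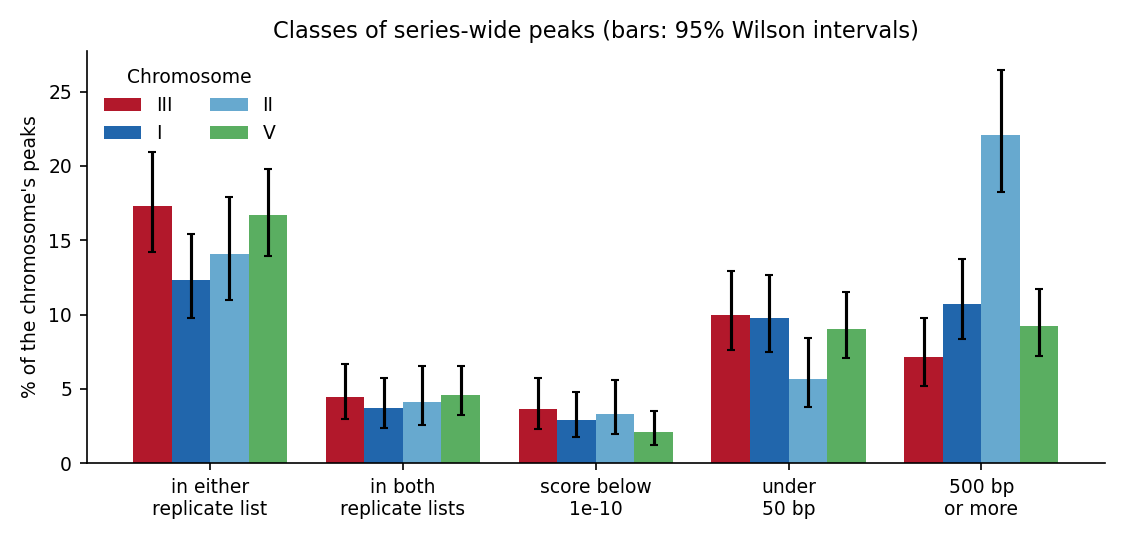
Bars give the percentage of series-wide peaks (y axis) on III, I, II and V that fall in each class (x axis), with 95% Wilson intervals. In the class of 500 bp or more III is lowest at 7.13% and II highest at 22.1%; in the other 4 classes the interval of III overlaps that of each other chromosome.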

How the data were processed

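Peaks were called with PeakSeq on genome build WormBase WS220, per the file headers and columns. The caller's version and settings, the aligner, the control used, and whether reads were pooled for the series-wide list: not given in the sources used here. The deposited significance value is a p-value or q-value, which is not stated; all were below 0.001. The series-wide list had 2836 peaks numbered up to 2869, and places were counted over those listed. Read depth is unknown, and intervals cover counting error only. Chromosome lengths were taken up to the last peak end found in the 3 lists, and a peak's position is its midpoint. A peak was shared when it overlapped by 1 bp. Densities were compared by exact conditional binomial tests, shares by Fisher's exact test, all two-sided with SciPy 1.17.1 in Python 3.11.15, and 1 Mb bins by a quasi-Poisson fit with statsmodels 0.14.6; functions were tested on simulated data. Differences of shares carry Newcombe intervals. Benjamini-Hochberg adjustment was over 7 comparisons with I, II and V, 3 single chromosomes, 2 ends, 2 tests within III and 3 added end comparisons. For an alternative setting or a replicate list, only the p-value of that comparison was replaced. The other p-values of its family stayed those of the main series-wide setting. Members, comparisons and naming rule (10 strongest, 3 widest, 3 longest runs with ties, densest and sparsest bins, end peaks, replicate peaks the series-wide list lacks) were chosen with earlier results of these data known. Peaks named outside that rule, and the long-gap, edge and run descriptions, were chosen after values were seen. Alternatives were other peak subsets, limits and overlaps, runs counted once, and single replicate lists.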

Additional observations from a re-analysis of the deposited data

How the results depend on the processing

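Of 82 alternative values, 58 changed neither direction nor call. The density ratio of III to I, II and V was 1.03 in covered base pairs and lost its call in the quasi-Poisson fit (1.19). With 1 replicate list in place of the series-wide one it was 1.38 to 1.47, and the call was lost in replicate 2. The ratio was 1.3 to 1.54 against I (past the threshold in replicate 1), 1.42 to 2.06 against II (lost in replicate 2) and 1.19 to 1.40 against V (lost in both). Fewer peaks enter those fits. The deficit of wide peaks lost its call at 1000 bp or more (−0.59 points) and without II (−2.77). Among results that passed no test, the direction turned for peaks in both replicates with midpoints within 200 bp (−0.18 points), the first 250 peaks as the strong class (−0.070), the left end with runs counted once (0.85) and the left against the right arm with the outer 25% as arms (0.89). In the replicate lists the central share of III was 26.2% to 36% and its difference from I, II and V −9.21 to −0.30 points, and replicate support with 1 list differed by 1.29 to 1.77 points; the causes were not tested. In the added comparison of right ends, the ratio of III to I, II and V over the outer 1 Mb was 1.44 (exact p = 0.0219, adjusted exact p = 0.0328). That adjustment kept the other added comparisons at 500 kb. An adjustment with every added comparison at 1 Mb was not made, so no call is drawn from it. The comparison of right ends did not pass with runs counted once (1.54, adjusted exact p = 0.132) or with the best-scored 50% of peaks (1.43, adjusted exact p = 0.188). With the replicate lists, added after the data were seen, the right end lost its call (1.11 to 2.21 times the rest of III), and it was 1 times the left end in both lists and 1 to 3 times the right ends of I, II and V. The left end was 1.11 to 2.21 times the rest of III and, turned in direction, 1.5 times the left ends of I, II and V in both. The left arm led by 1.40 to 1.46 in the replicate lists. No paired analysis was possible because only the ChIP samples have lists, so no group pairs with another. Depth is unknown, so its bearing on weak, unsupported peaks cannot be given.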
